A study of Drosophila melanogaster with 9 samples.

Results

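Whole Drosophila melanogaster larvae of the strain hopTum were compared with larvae of the strain w1118 by RNA sequencing, across all genes and by tissue and pathway. The members were chosen by the genotype in the sample labels: 3 hopTum libraries and 3 w1118 libraries, 6 of the 9 libraries of the study. The hopTum larvae carried hop[Tum], a dominant, temperature-sensitive gain-of-function allele of hopscotch (hop), in every cell of the animal, and the w1118 larvae carried w1118, a loss-of-function allele of white. The 3 further libraries came from the strain tuSz1, labelled tuSz[1], another mutant strain of the study. They entered the model to share its estimate of the spread, and hopTum was also set against them. All animals were raised on standard medium at 28 °C, and each library was made from the total RNA of 20 pooled larvae. Larval stage and sex are not given in the labels, and the strains may differ at other loci, so the hop allele and the rest of the strain background cannot be told apart. Pigment genes often used as stock markers did differ: w (white) stood at 136, 219 and 165 CPM in hopTum, against 1.76, 1.87 and 3.19 CPM in w1118, and v (vermilion) at 1.02, 3.58 and 1.14 CPM in hopTum, against 33.8, 19.3 and 31.6 CPM in w1118.

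hop encodes the fly's Janus kinase. Cytokines of the Unpaired family bind the receptor Domeless, Hop then phosphorylates the transcription factor Stat92E, and Stat92E switches on targets such as the Turandot stress peptides and the feedback inhibitor Socs36E. In larvae the pathway is known for turning blood cells into lamellocytes, large flat cells that wrap foreign bodies, and larvae with an overactive Hop are known for black, melanised masses of such cells.

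The files held 9552828 to 12180558 counts per hopTum library and 10387052 to 10973053 per w1118 library, so 3 counts, taken here as the floor of detection, equalled 0.2 to 0.357 CPM (counts per 1000000 counts) across the 9 libraries. CPM were computed on library sizes scaled by edgeR's TMM factors, and all levels below are CPM. Counts had been made per RefSeq transcript and were summed per gene. Genes with several transcripts held 5.99% of all counts and were called less often (14.1%) than genes with 1 transcript (20%), and how reads shared by transcripts of a gene were counted is not given in the sources used here, so the levels of multi-transcript genes are uncertain. hopTum replicate 2 stood apart from replicates 1 and 3 for several genes given below, and tuSz1 replicate 3 stood apart for the salivary glue genes. Because whole animals were sequenced, fewer cells of a type and less RNA per cell cannot be told apart in any result that follows.

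Of 9106 genes with enough counts to test, 1649 (18.1%) differed between hopTum and w1118 at an adjusted p under 0.05 by edgeR's quasi-likelihood test. Of these, 1043 (11.5% of genes tested) were higher and 606 (6.65%) lower in hopTum. These shares are the background against which each gene list is read: a list whose members were called at about these rates did not stand out. The balance depended on scaling. Higher calls made up 63.25% of all calls with TMM factors, 37.5% when libraries were scaled by total counts, 50.71% when scaling ignored the 50 most counted genes and 50.97% with no filter on low counts, while the median over all genes tested was a log2 fold change of -0.05, -0.41, -0.21 and -0.27 under these settings. Changes are therefore given relative to such a shift, and lists below whose printed median or balance of calls turned with total count scaling are named where they appear. Leaving out 1 library gave 823 calls without w1118 replicate 2, 846 without hopTum replicate 1 and 995 without w1118 replicate 3, and 1383 to 1538 calls when any other of the 6 was left out. The plot of fold change against level shows the genes with the largest differences far above the body of the data at high levels, and the largest falls at intermediate levels.

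**Figure D1:**
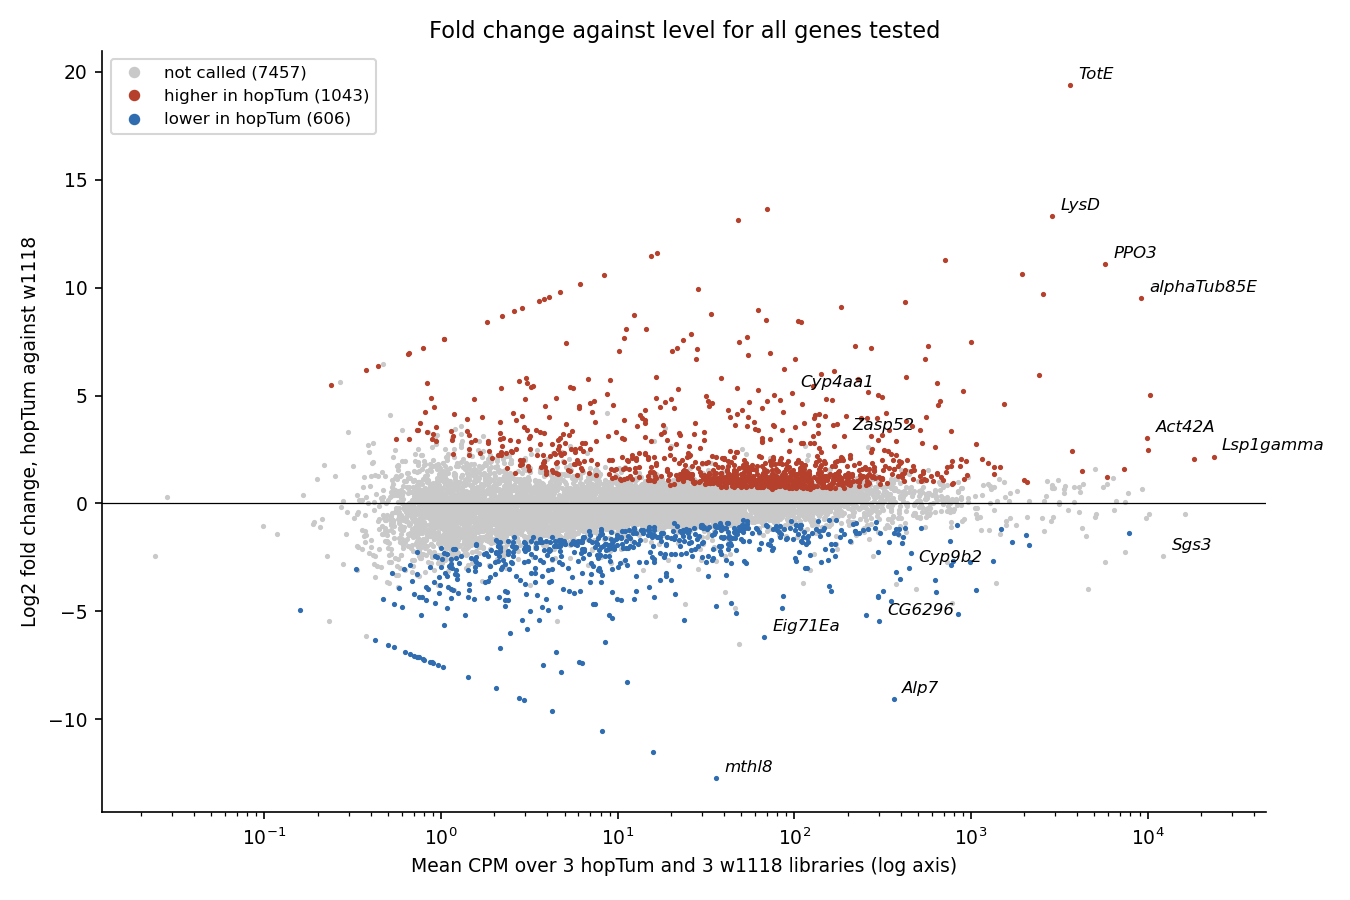
Log2 fold change of hopTum over w1118 (y axis) against mean level in CPM over the 6 libraries (x axis, log scale) for the 9106 genes tested; each point is a gene and colour marks the 1043 genes called higher and the 606 called lower in hopTum.

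**Figure D2:**
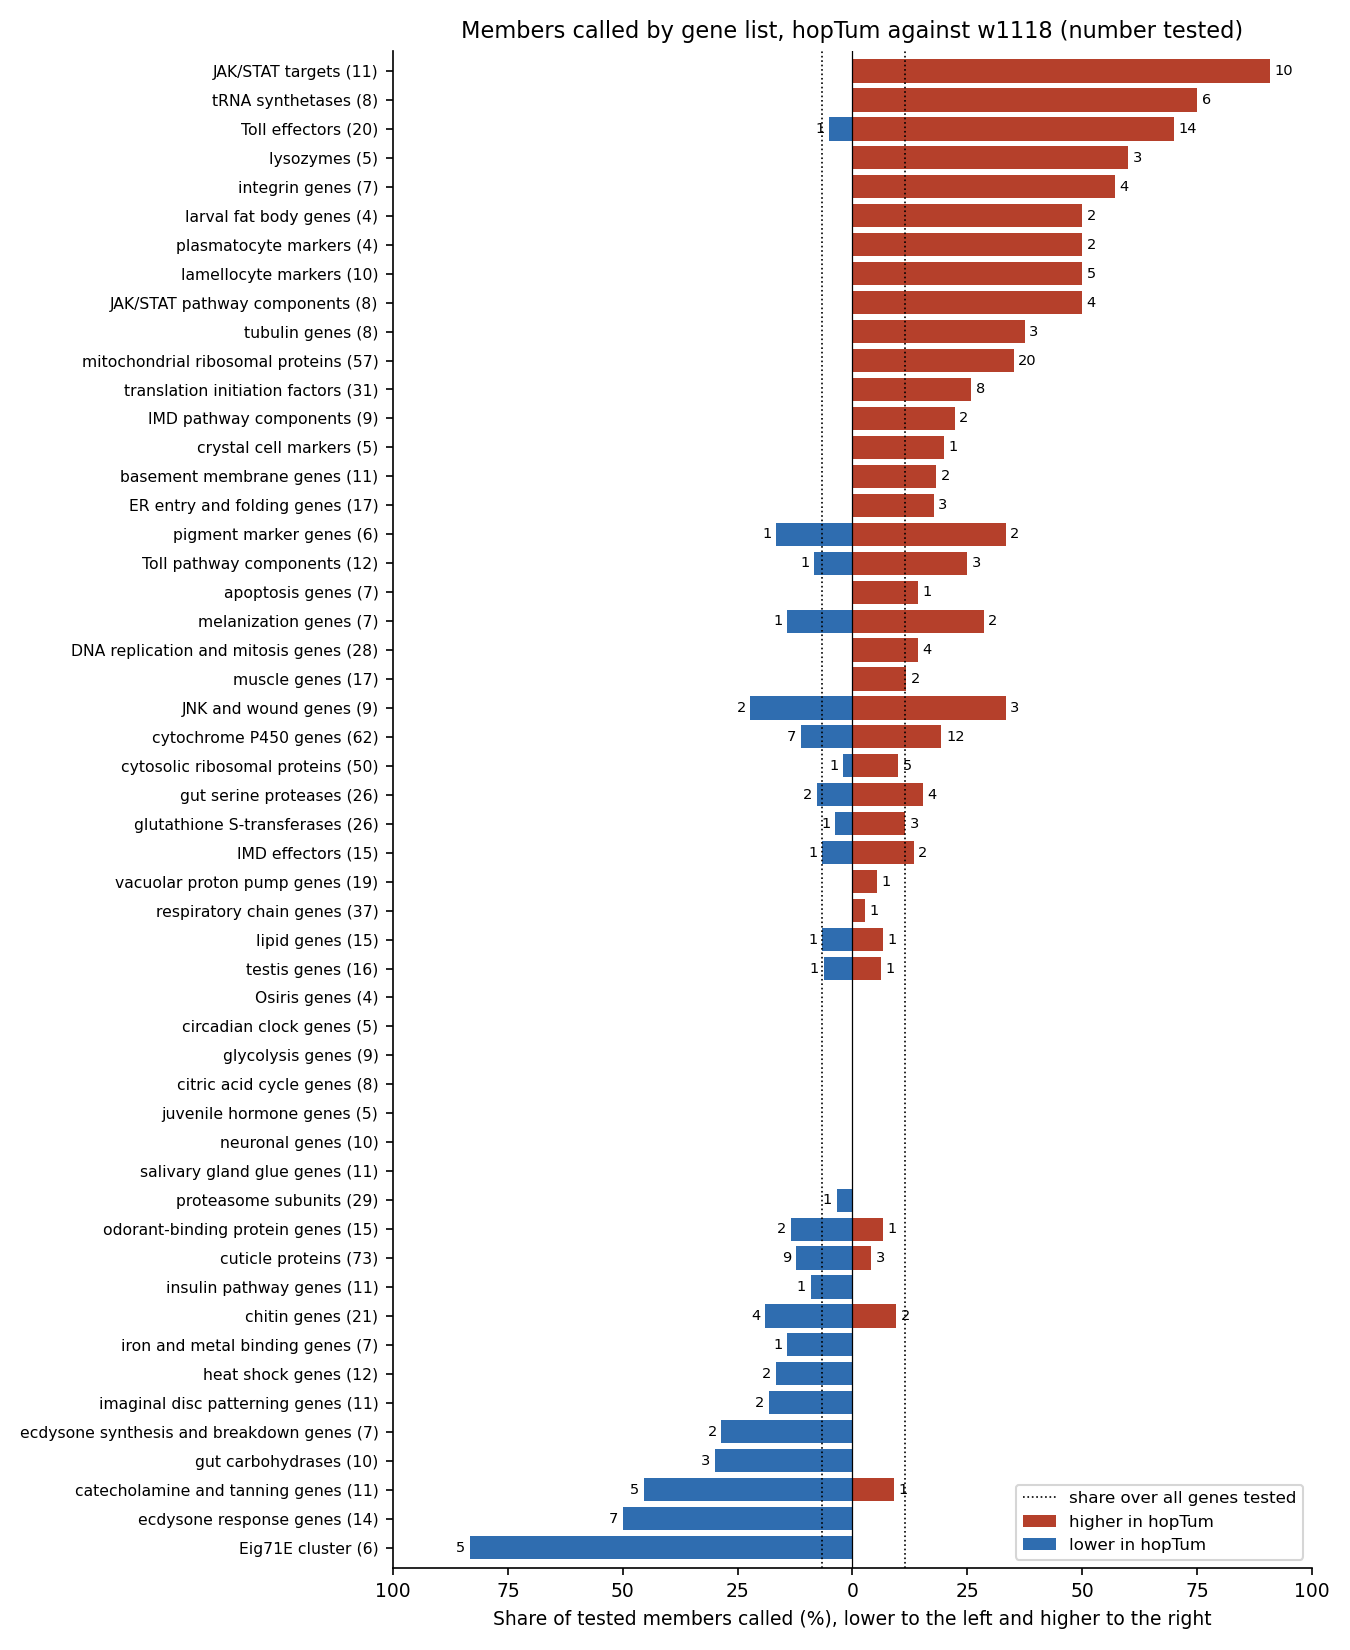
Share of the tested members of each gene list that were called higher or lower in hopTum than in w1118, in percent of members tested; dotted lines mark the background of 11.5% higher and 6.65% lower over all 9106 genes. JAK/STAT targets, Toll effectors, tRNA synthetases and integrins lie far to the higher side, and the Eig71E, ecdysone response and tanning lists far to the lower side.

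The kinase gene itself and its receptor were higher in hopTum larvae. hop, at 11360930 to 11368098 on chromosome X (dm6), stood at 479, 178 and 341 CPM in hopTum replicates 1 to 3, against 140, 158 and 135 CPM in w1118. The 3 hopTum values lay above the 3 w1118 values, with replicate 2 only just so (log2 fold change 1.21, SE 0.32, adjusted p = 0.0244 by edgeR's quasi-likelihood test). The call was lost without hopTum replicate 1 (adjusted p = 0.137) and without w1118 replicate 1, 2 or 3 (0.0587, 0.0693 and 0.0786). It was also lost with total count scaling (log2 fold change 0.86, adjusted p = 0.124) and with the replicate number as a block (0.06). The allele is a change in the protein, so the level of hop RNA does not check the label. The receptor gene dome had 922, 314 and 620 CPM in hopTum, against 238, 126 and 148 CPM in w1118 (log2 fold change 1.86, adjusted p = 0.00966), a call lost without hopTum replicate 1 (0.0541) and without w1118 replicate 2 (0.0527). The cytokine gene upd3 had 46.1, 16.2 and 53.7 CPM, against 2.5, 0.4 and 1.16 CPM in w1118 (log2 fold change 4.84, SE 0.66, adjusted p = 0.000447). Ptp61F, a phosphatase that dampens the pathway, had 16.6, 3.58 and 14.6 CPM in hopTum, against 0.294, 0.133 and 1.09 CPM in w1118 (adjusted p = 0.00333). Stat92E overlapped between the strains, at 31.3, 49.3 and 38.0 CPM in hopTum and 30.4, 42.6 and 36.0 CPM in w1118. hopTum replicate 2 was the lowest hopTum library for hop, dome, upd3 and Ptp61F. The summed level of the listed pathway targets was not lowest in that library. That sum was 31450, 31500 and 37930 CPM in hopTum replicates 1 to 3, against 512, 762 and 782 CPM in w1118. TotA alone held 17300, 20180 and 22700 CPM of the hopTum sums. Of the 4 Turandot genes in the cluster TotA to TotZ, TotA was lowest in hopTum replicate 1. TotC (4427, 3436 and 3872 CPM), TotB (369, 243 and 483 CPM) and TotZ (93.4, 83.9 and 112 CPM) were lowest in replicate 2. In all, 4 of 8 tested components (12 listed) and 10 of 11 tested targets (15 listed) were higher and none of either list was lower. The higher components were hop, dome, upd3 and Ptp61F, so Socs36E, which is on both lists, was not among the genes called higher. Without hopTum replicate 1 the number of higher components fell to 2.

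Several secreted defence proteins that are not classical antimicrobial peptides differed between the strains. Lysozymes, enzymes that break down bacterial cell walls and that in larvae are best known from the gut, were higher in hopTum for 3 of 5 tested members (7 listed). LysD, at 1210717 to 1211196 on chromosome arm 3L, had 7244, 8169 and 1856 CPM in hopTum, against 1.25, 0.267 and 0.145 CPM in w1118. The call had an adjusted p of 1.7e-05, and no fold is given because w1118 lay near the floor of detection. LysD also exceeded the 13.9 to 40 CPM of the tuSz1 libraries (adjusted p = 0.00053 by the same test). LysE, its close copy, had 1251, 1818 and 358 CPM in hopTum, against 12.4, 3.13 and 6.08 CPM in w1118 (log2 fold change 7.31, adjusted p = 0.000113). Reads of LysD and LysE may have been split between them by the counting, so the level of each is uncertain. The third higher gene, LysS, lost its call in 9 of the 16 alternatives. Among them were the 6 libraries alone (adjusted p = 0.0743 by edgeR) and the fits without hopTum replicate 1 or 2 (0.09 and 0.108) or w1118 replicate 2 or 3 (0.0952 and 0.0976). LysX stood at 192, 573 and 195 CPM in hopTum and at 121, 155 and 603 CPM in w1118, and the groups overlapped. hopTum replicate 3 held the least lysozyme RNA of the hopTum libraries, 2538 CPM in sum against 8964 and 11160 CPM in replicates 1 and 2, still above the 249, 252 and 645 CPM of w1118.

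Serine proteases and protease homologues of the immune lists moved in both directions. SPH93, a catalytically dead protease homologue, had 4993, 3788 and 5491 CPM in hopTum, against 53.9, 54.1 and 119 CPM in w1118 (log2 fold change 5.97, SE 0.47, adjusted p = 5.55e-06). SPE, the protease that cuts the Toll ligand Spätzle, had 131, 169 and 89.1 CPM in hopTum, against 18.4, 15.1 and 15.5 CPM in w1118 (log2 fold change 2.99, adjusted p = 0.000342). Both calls held in all 16 alternatives. Sp7, a protease of the melanisation cascade, had 1.33, 1.41 and 1.84 CPM in hopTum, against 4.93, 5.47 and 9.92 CPM in w1118, and was lower (log2 fold change -2.14, adjusted p = 0.0129, and 0.061 without w1118 replicate 3). Drsl1, a Drosomycin-like peptide, fell as well: it was not counted in any hopTum library and had 0.882, 2.4 and 2.9 CPM in w1118, and was called lower. It was the only lower gene among 20 tested Toll effectors (28 listed), of which 14 were higher. Drs and Drsl3 of the same family were called higher, calls lost in 7 and 4 of the 16 alternatives.

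Listericin, which is on none of the gene lists, and pirk, of the IMD effector list, fell in hopTum larvae. Listericin, a small secreted antibacterial peptide, at 11241745 to 11242194 on arm 2R, had 13.8, 19.2 and 8.52 CPM in hopTum, against 491, 356 and 648 CPM in w1118 (log2 fold change -5.17, SE 0.55, adjusted p = 8.06e-05). It was also below the 128, 188 and 44.4 CPM of tuSz1. pirk, an inhibitor of IMD signalling, had 0, 0.565 and 0.176 CPM in hopTum, against 4.93, 3.6 and 4.63 CPM in w1118 (adjusted p = 0.018), a call lost without hopTum replicate 1 (0.0541) and without w1118 replicate 3 (0.0552). In the other direction, the cecropin gene CecC had 43.2, 46.2 and 38.3 CPM in hopTum, against 2.13, 0.267 and 0.869 CPM in w1118 (log2 fold change 5.29, adjusted p = 0.00014). Of 15 tested IMD effectors (18 listed), 2 were higher and 1 lower in hopTum, close to the background shares. With total count scaling 2 were higher and 3 lower.

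Genes of cell adhesion and the cytoskeleton rose with the lamellocyte markers. The 12 listed markers summed to 17770, 16870 and 15860 CPM in hopTum, against 109, 121 and 105 CPM in w1118, with tuSz1 between them at 2640, 2811 and 2663 CPM. Of 10 tested markers, 5 were higher and none lower, 8 had a log2 fold change above 0 and the median was 1.14. The defining markers atilla and betaTub60D were not tested, and 2 of the 12 listed genes had no count in any of the 6 libraries. PPO3, the phenoloxidase gene of lamellocytes, made up most of the sum in hopTum, and ItgaPS4, given below, most of the rest. PPO3 stood at 12370, 12450 and 9703 CPM in hopTum, against 8.01, 3.47 and 4.34 CPM in w1118 (log2 fold change 11.09, adjusted p = 3.13e-07).

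Integrins are the receptors that hold cells to the matrix and to each other, and 4 of 7 tested members (8 listed) rose in hopTum. ItgaPS4, an alpha subunit also on the lamellocyte list, had 5128, 4270 and 5837 CPM in hopTum, against 3.16, 6.0 and 9.27 CPM in w1118 (log2 fold change 9.69, SE 0.57, adjusted p = 6.69e-07). ItgaPS5, a related alpha subunit, had 387, 180 and 264 CPM in hopTum, against 4.63, 3.33 and 5.07 CPM in w1118 (log2 fold change 5.99, SE 0.39, adjusted p = 1.63e-06). In tuSz1 ItgaPS5 stood at 272, 306 and 415 CPM, and hopTum was not called different from it (log2 fold change -0.26, adjusted p = 0.66), whereas ItgaPS4 was higher in hopTum than in tuSz1 (adjusted p = 0.0047). The alpha subunit gene mew had 133, 262 and 176 CPM in hopTum, against 27.8, 29.3 and 24.3 CPM in w1118 (log2 fold change 2.81, adjusted p = 3.96e-05). The beta subunit gene mys, the partner of these alpha subunits, had 23.6, 11.7 and 19.0 CPM in hopTum, against 3.6, 4.4 and 5.36 CPM in w1118 (adjusted p = 0.00449). Its reads lay mainly on different transcripts in hopTum and in w1118. The alpha subunit gene scb overlapped, at 24.7, 13.9 and 27.7 CPM in hopTum and 51.5, 26.5 and 47.6 CPM in w1118.

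Among tubulins and actins the same libraries held large amounts of a few genes. alphaTub85E, an alpha tubulin known from muscle attachment cells and testis, at 9731221 to 9733250 on arm 3R, had 18390, 23240 and 13120 CPM in hopTum, against 43.9, 21.3 and 10.5 CPM in w1118. Its log2 fold change was 9.50 (SE 0.68, adjusted p = 2.74e-06), and it also exceeded the 2628 to 3181 CPM of tuSz1 (adjusted p = 0.00734). alphaTub84B, the widely used alpha tubulin, had 30160, 37190 and 21120 CPM in hopTum, against 10390, 4826 and 5805 CPM in w1118 (log2 fold change 2.07, adjusted p = 0.00641), and may share reads with its near copy alphaTub84D, which was not called. Of 8 tested tubulin genes (11 listed), 3 were higher and all 8 had a log2 fold change above 0. Without w1118 replicate 1, 5 were higher. Act42A, a cytoplasmic actin at 6013910 to 6015689 on arm 2R, had 20610, 17370 and 15280 CPM in hopTum, against 1506, 2036 and 2986 CPM in w1118 (log2 fold change 3.03, SE 0.38, adjusted p = 0.000237). Fim, the actin-bundling protein Fimbrin, had 144, 101.4 and 177 CPM in hopTum, against 50.4, 59.4 and 50.02 CPM in w1118 (log2 fold change 1.4, adjusted p = 0.00355).

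Zasp52, a scaffold of muscle Z-discs and of integrin adhesion sites, rose in hopTum, while most muscle genes were not called. It lies at 15762565 to 15817004 on arm 2R and had 359, 303 and 370 CPM in hopTum, against 40.4, 41.6 and 35.5 CPM in w1118 (log2 fold change 3.13, SE 0.25, adjusted p = 6e-06). It was also above the 50.8 to 72.7 CPM of tuSz1 (log2 fold change 2.44, adjusted p = 0.000157). Of its 21 transcripts only 3 held counts, and the leading one held 99.6% of its hopTum counts and 98.6% of its w1118 counts. Of 17 tested muscle genes (22 listed), 2 were higher, and their summed level overlapped, at 20320, 32530 and 4063 CPM in hopTum and 19780, 5900 and 9283 CPM in w1118. In every fit that left out 1 of the 6 libraries except the one without hopTum replicate 2, Zasp52 was the only muscle gene called; the other in the fit of all libraries was TpnC73F, a troponin C. Mmp1, a secreted protease that remodels matrix, is a lamellocyte marker as well and had 40.7, 4.61 and 51.4 CPM in hopTum, against 0.368, 0.4 and 0.869 CPM in w1118 (log2 fold change 5.86, adjusted p = 0.000614), again with hopTum replicate 2 lowest. How far the rise of integrins, alphaTub85E, Act42A and Zasp52 moved with the number of lamellocytes was not tested.

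Plasmatocytes, the phagocytic majority of larval blood cells, left a weaker trace. Their listed markers summed to 62.9, 94.7 and 88.5 CPM in hopTum, against 37.9, 82.1 and 89.4 CPM in w1118, and 2 of 4 tested markers (7 listed) were higher. The defining markers Hml, Pxn and He were not tested. Of the 4 tested, 2 had a log2 fold change above 0, and 1 had its 3 hopTum values below the 3 w1118 values. The median log2 fold change of the list was 0.708 with all 9 libraries and ranged from -0.375 to 0.839 over the alternatives. NimC1, a phagocytosis receptor, had 15.7, 22.7 and 21.7 CPM in hopTum, against 5.37, 7.47 and 6.01 CPM in w1118 (log2 fold change 1.67, SE 0.34, adjusted p = 0.00637). Sr-CI, a scavenger receptor, had 12.4, 7.82 and 8.08 CPM in hopTum and no count in w1118, at least 44.3-fold higher against the floor of 3 counts per library. NimC4 (Simu), an engulfment receptor for dying cells that is not on the list, had 23.8, 69.7 and 6.5 CPM in hopTum and no count in w1118, at least 157-fold higher, and it also exceeded the 0.715 to 1.84 CPM of tuSz1 (adjusted p = 0.0126).

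**Figure D3:**
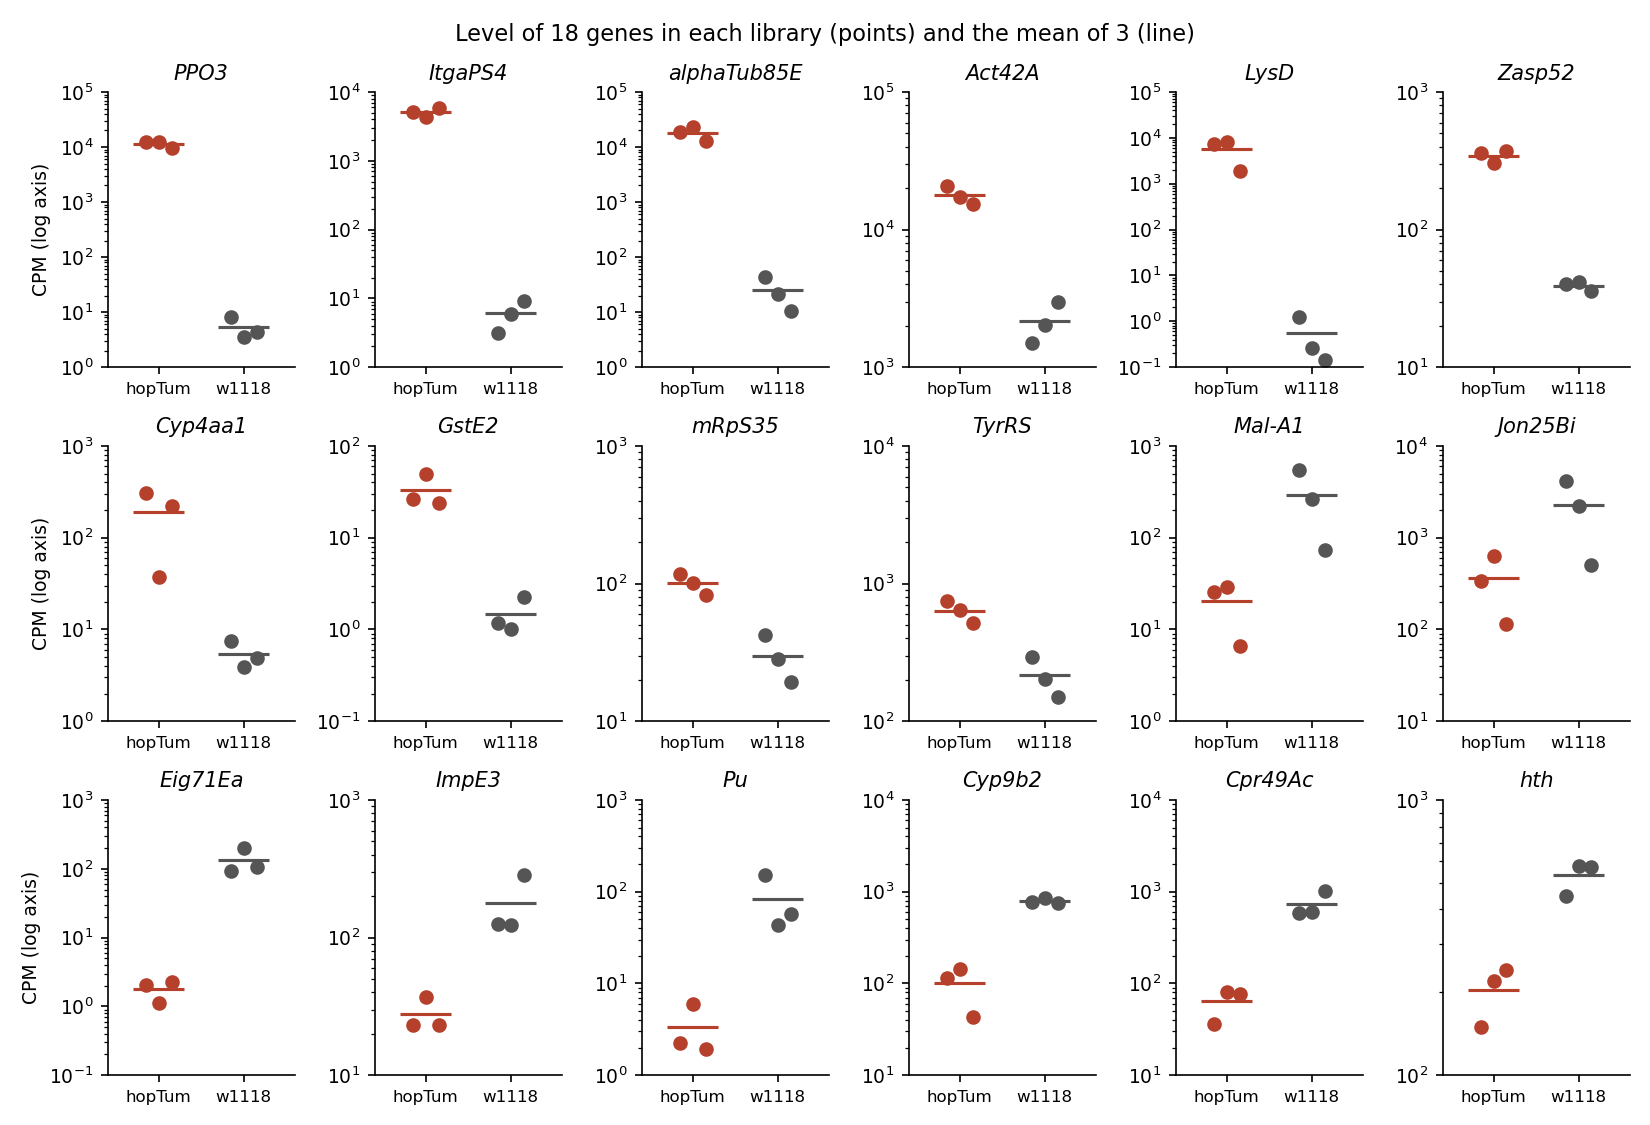
Levels in CPM (log axes) of 18 genes in each library, with hopTum on the left of each panel and w1118 on the right; points are libraries and lines the mean of 3. The 3 hopTum points of PPO3, ItgaPS4, alphaTub85E, LysD and Zasp52 lie above the 3 w1118 points, and those of Mal-A1, Eig71Ea, ImpE3, Pu, Cyp9b2, Cpr49Ac and hth below them, while Jon25Bi overlaps.

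Genes of the mitochondrial ribosome were called higher in hopTum above the background share. Of 57 tested mitochondrial ribosomal protein genes (73 listed), 20 were higher and none lower. Their median log2 fold change was 0.79, against -0.05 over all genes, and 54 of the 57 lay above 0. Summed, they stood at 4084, 4105 and 3121 CPM in hopTum, against 2175, 1947 and 2062 CPM in w1118, with tuSz1 at 2928, 3259 and 4839 CPM. The median stayed between 0.40 and 0.89 in the 16 alternatives. The number called did not hold as well: it was 4 without hopTum replicate 1, 10 without hopTum replicate 2, 5 without w1118 replicate 2, 7 without w1118 replicate 3, 5 with total count scaling and 31 without tuSz1 replicate 3. mRpS35, a subunit of the small mitochondrial ribosome, had 118, 102 and 81.9 CPM in hopTum, against 42.4, 28.1 and 19.3 CPM in w1118 (log2 fold change 1.75, SE 0.35, adjusted p = 0.00581), a call that held in all 16 alternatives. mRpS22 had 194, 190 and 143 CPM in hopTum, against 84.8, 73.9 and 45.6 CPM in w1118 (log2 fold change 1.37, adjusted p = 0.0101).

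tRNA synthetases load tRNAs with their amino acid, and 6 of 8 tested genes (17 listed) rose in hopTum. All 8 had a log2 fold change above 0, with a median of 1.25. TyrRS, the tyrosyl-tRNA synthetase, had 750, 639 and 521 CPM in hopTum, against 293, 203 and 149 CPM in w1118 (log2 fold change 1.57, SE 0.32, adjusted p = 0.00626). MetRS, the methionyl-tRNA synthetase, had 472, 251 and 384 CPM in hopTum, against 153, 161 and 137 CPM in w1118 (log2 fold change 1.29, adjusted p = 0.00805). With total count scaling 2 of the 8 were called, without hopTum replicate 1 also 2, and without w1118 replicate 2 only 3. Among translation initiation factors 8 of 31 tested genes (44 listed) were higher, at a median log2 fold change of 0.44. eIF2Bbeta, part of the exchange factor that recharges eIF2, had 211, 254 and 160 CPM in hopTum, against 103, 67.2 and 86.7 CPM in w1118 (log2 fold change 1.28, adjusted p = 0.00638) and kept its call in all 16 alternatives. In the whole list, eIF2Bbeta included, 1 factor was called higher without hopTum replicate 1, 1 without w1118 replicate 3 and 2 without w1118 replicate 2.

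Cytosolic ribosomal protein genes had a median log2 fold change of 0.60, with 5 of 50 tested genes (87 listed) higher and 1 lower, a share no larger than the background. Their summed level was 92700, 106600 and 69180 CPM in hopTum, against 50120, 43530 and 47770 CPM in w1118, and the strains did not overlap. RpL4, a protein of the large subunit, had 12890, 12870 and 7547 CPM in hopTum, against 5253, 2840 and 2859 CPM in w1118 (adjusted p = 0.0295), a call lost without hopTum replicate 1 or 2 (0.11 and 0.0702) and without w1118 replicate 2 or 3 (0.122 and 0.101). RpLP0-like, a relative of the ribosomal stalk protein that acts in ribosome assembly, had 140, 138 and 108 CPM in hopTum, against 48.4, 52.2 and 40.2 CPM in w1118 (log2 fold change 1.46, adjusted p = 0.00162), and its call held in all 16 alternatives. RpS28b went the other way, with 1.43, 3.67 and 1.76 CPM in hopTum, against 6.91, 14.8 and 17.6 CPM in w1118 (log2 fold change -2.51, adjusted p = 0.00475). Without hopTum replicate 1 or 2, or without w1118 replicate 2 or 3, 2 cytosolic ribosomal genes were called higher.

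Chaperones of the endoplasmic reticulum, where secreted proteins fold, were represented by Gp93, the fly's GRP94. It had 9436, 3536 and 5852 CPM in hopTum, against 1581, 1052 and 845 CPM in w1118 (log2 fold change 2.44, SE 0.44, adjusted p = 0.00345). Of 17 tested genes of entry and folding in that compartment (27 listed), 3 were higher, and the call of Gp93 held in the 15 alternatives that gave it a value. Only 1 of the 17 was called without hopTum replicate 1 or 2 or without w1118 replicate 2 or 3. DNA replication and mitosis genes had a median log2 fold change of 0.24, with 4 of 28 tested (37 listed) higher. None was called without hopTum replicate 1, 2 without hopTum replicate 3 and 1 without w1118 replicate 2, and with total count scaling none was called and the median was -0.14. Respiratory chain genes had 1 of 37 tested genes (87 listed) higher and none lower, with a median of 0.24 that turned to -0.08 with total count scaling and -0.06 without hopTum replicate 2. The single call was ATPsynO, a subunit of ATP synthase (adjusted p = 0.0479), and was lost without hopTum replicate 1 or 2 (0.116 and 0.148) and without w1118 replicate 1, 2 or 3 (0.0662, 0.159 and 0.134). Proteasome subunits had 1 of 29 tested genes (48 listed) lower and a median of -0.05. That gene, Prosbeta4R2 (adjusted p = 0.028), lost its call without hopTum replicate 1 or 2 (0.0858 and 0.074) and without w1118 replicate 1, 2 or 3 (0.0539, 0.077 and 0.0556). The difference between these lists and the mitochondrial ribosomal list was not tested.

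**Figure D4:**
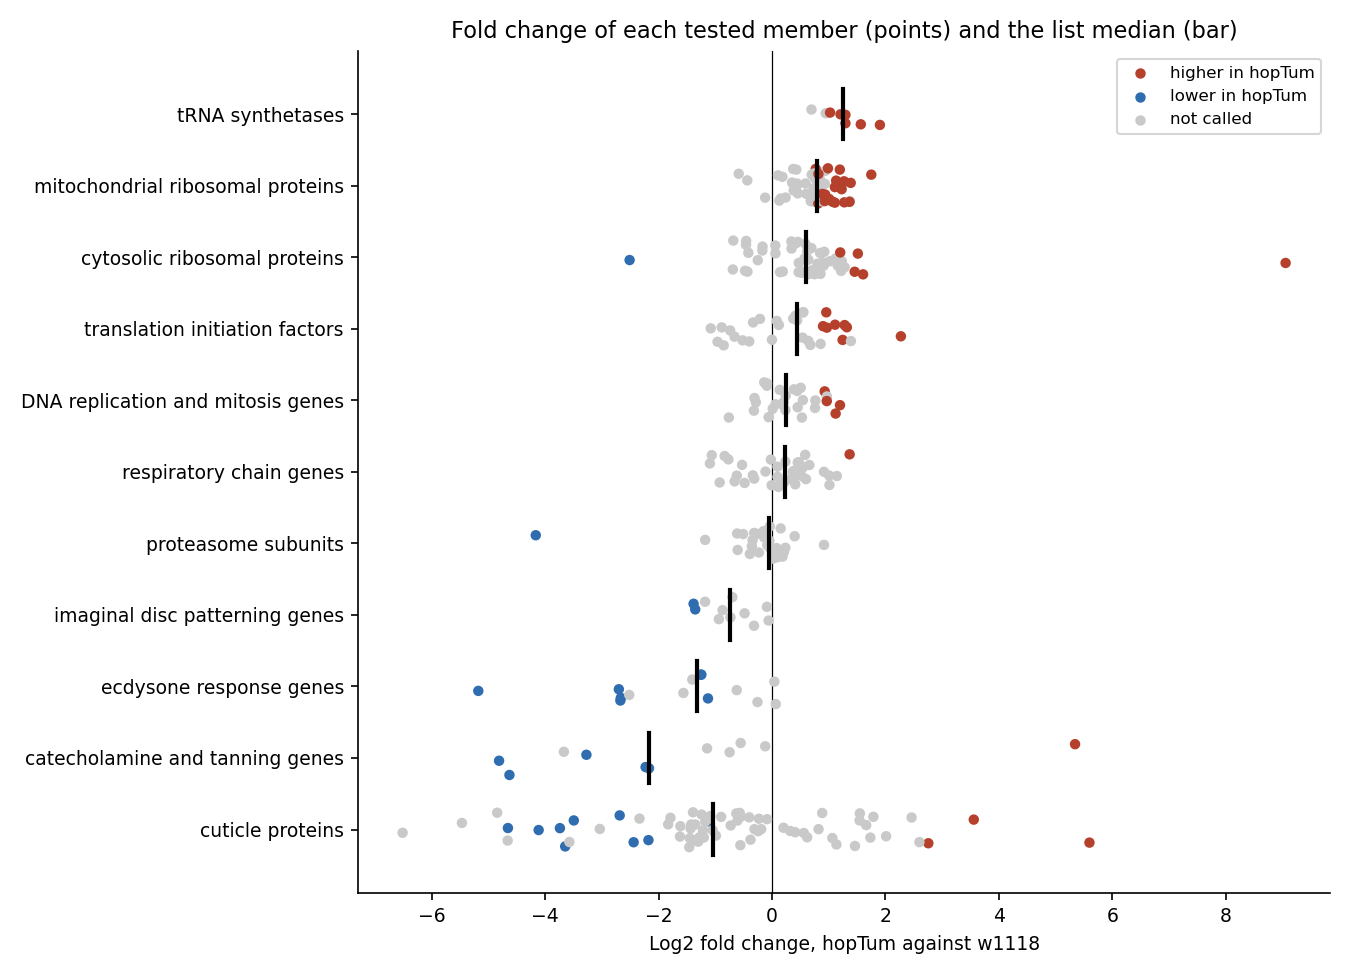
Log2 fold change of hopTum over w1118 for every tested member of 11 gene lists; points are genes, coloured where called and grey where not, and bars mark the median of each list. Mitochondrial ribosomal proteins and tRNA synthetases lie mostly above 0 (medians 0.79 and 1.25), and ecdysone response, cuticle and tanning genes mostly below 0 (medians -1.33, -1.05 and -2.17).

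Genes that respond to the moulting hormone ecdysone were lower in hopTum larvae. Ecdysone pulses trigger the larval moults and the onset of metamorphosis through the receptor EcR and a cascade of early genes. Of 14 tested response genes (17 listed), 7 were lower and none higher, at a median log2 fold change of -1.33. Summed, they stood at 834, 847 and 1174 CPM in hopTum, against 2976, 2765 and 4039 CPM in w1118. The tuSz1 libraries were lower still, at 489, 381 and 324 CPM, and 4 of the genes were called higher in hopTum than in tuSz1. ImpE3, an ecdysone-induced gene of imaginal discs, had 23.1, 37.3 and 23 CPM in hopTum, against 126, 124 and 283 CPM in w1118 (log2 fold change -2.68, SE 0.37, adjusted p = 0.00051). Hr3, a nuclear receptor of the metamorphic cascade, had 0, 0.188 and 0 CPM in hopTum, against 3.46, 2.07 and 2.46 CPM in w1118 (adjusted p = 0.00888). The call of ImpE3 held in all 16 alternatives and that of Hr3 in the 14 that tested it.

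The early gene Eip75B, a nuclear receptor, had 107, 94.3 and 189 CPM in hopTum, against 326, 267 and 339 CPM in w1118 (log2 fold change -1.26, adjusted p = 0.0244), a call lost without hopTum replicate 1 or 2 (0.0781 and 0.0769) and without w1118 replicate 3 (0.0693). br (Broad), the early transcription factor of the change from larva to pupa, had 263, 310 and 407 CPM in hopTum, against 619, 628 and 899 CPM in w1118, without overlap. Its adjusted p was 0.0284, and 0.104 without hopTum replicate 1. Eip78C, a further nuclear receptor of the cascade, had 3.58, 31.2 and 7.73 CPM in hopTum, against 106, 60.1 and 104 CPM in w1118 (adjusted p = 0.0175, and 0.0512 without hopTum replicate 3). The number of lower genes in the list was 4 without hopTum replicate 2 or 3 or w1118 replicate 2, and 3 without hopTum replicate 1 or w1118 replicate 3. Among genes that make or break down ecdysone, 2 of 7 tested (9 listed) were lower. The call of dib, an enzyme of ecdysone synthesis (adjusted p = 0.0395), was lost without hopTum replicate 1, 2 or 3 (0.101, 0.053 and 0.0996) and without w1118 replicate 2 or 3 (0.0987 and 0.133), which left 1. spok, an enzyme of the prothoracic gland in ecdysone synthesis, had 4.7, 6.78 and 5.09 CPM in hopTum, against 13.1, 23.1 and 21.2 CPM in w1118 (log2 fold change -1.79, SE 0.34, adjusted p = 0.00421) and 24.8 to 29.5 CPM in tuSz1.

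The Eig71E genes, a cluster of ecdysone-induced genes at 15649126 to 15658149 on arm 3L that is active late in larval life, fell as well. Of 6 tested members (11 listed), 5 were lower, at a median fitted log2 fold change of -6.77, with several members near the floor of detection in hopTum. Eig71Ea had 2.04, 1.13 and 2.28 CPM in hopTum, against 93.1, 200 and 105 CPM in w1118 (log2 fold change -6.18, SE 0.96, adjusted p = 0.00298), and tuSz1 was as low, at 0 to 4.28 CPM. Eig71Eg had 0.409, 0.377 and 0.527 CPM in hopTum, against 8.6, 29.7 and 15.8 CPM in w1118 (adjusted p = 0.000308), with hopTum too near the floor for a fold. The member that was not called, Eig71Ee, is also a glue gene of the salivary gland and overlapped, at 4157, 2349 and 4035 CPM in hopTum and 2440, 4042 and 7589 CPM in w1118.

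Glue genes, which the salivary gland turns on before pupariation, were lower in level but mostly not called in the model over 9 libraries. They summed to 17790, 19380 and 17200 CPM in hopTum, against 58170, 79920 and 65910 CPM in w1118, and to 65920, 66500 and 5623 CPM in tuSz1, whose replicate 3 was far below the other 2. None of 11 tested genes (12 listed) was called by edgeR, at a median log2 fold change of -1.08, while 1 was lower at an unadjusted p under 0.05 and 1 was lower by DESeq2's Wald test. With tuSz1 replicate 3 left out, a fit added after that library's glue levels were seen, or with only the 6 hopTum and w1118 libraries fitted, 6 of the 11 were lower in hopTum. Sgs3, one of the main glue proteins, had 3450, 5027 and 2849 CPM in hopTum, against 18620, 24900 and 18580 CPM in w1118. Its adjusted p was 0.366 with all 9 libraries, 0.000564 without tuSz1 replicate 3 and 0.00215 in the 6 libraries alone, where the log2 fold change was -2.48 (SE 0.43). Sgs8 had an adjusted p of 9.73e-05 without tuSz1 replicate 3, at a log2 fold change of -2.77 in the 6 libraries.

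Cuticle protein genes differed in both directions, and most were not called. Of 73 tested cuticle protein genes (126 listed), 9 were lower and 3 higher, against background shares of 6.65% and 11.5%, at a median log2 fold change of -1.05. Without w1118 replicate 1 that median was -0.08. The number lower was 14 without tuSz1 replicate 3, and the number higher was 5 without hopTum replicate 3 and 1 without w1118 replicate 3. The summed level overlapped, at 1801, 8014 and 1805 CPM in hopTum and 8828, 5842 and 6647 CPM in w1118, and hopTum replicate 2 was far above the other hopTum libraries. Cpr49Ac had 36.3, 81.6 and 76.9 CPM in hopTum, against 589, 603 and 1007 CPM in w1118 (log2 fold change -3.50, SE 0.39, adjusted p = 9.82e-05), and stood above the 16.6 to 25.9 CPM of tuSz1 (adjusted p = 0.0163). Pcp, a pupal cuticle protein, had 103, 254 and 281 CPM in hopTum, against 1330, 730 and 2050 CPM in w1118 (log2 fold change -2.69, adjusted p = 0.00533). Cpr56F had 12.2, 20.4 and 18.1 CPM in hopTum, against 76.0, 83.9 and 70.0 CPM in w1118 (log2 fold change -2.18, adjusted p = 0.00028). In contrast, Cpr50Cb was higher, though near the floor, at 1.53, 2.26 and 1.14 CPM in hopTum, against 0, 0.0667 and 0 CPM in w1118.

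Tanning uses catecholamines made from tyrosine, and 5 of 11 tested genes of this route (14 listed) were lower and 1 higher, at a median log2 fold change of -2.17. Pu (Punch), whose enzyme makes the cofactor of tyrosine hydroxylase, had 2.25, 5.93 and 1.93 CPM in hopTum, against 151, 43.3 and 56.6 CPM in w1118 (log2 fold change -4.63, SE 0.78, adjusted p = 0.00306). Ddc, the dopa decarboxylase, had 0.409, 1.04 and 2.46 CPM in hopTum, against 14.7, 13.1 and 10.6 CPM in w1118 (adjusted p = 0.00468). ple, the tyrosine hydroxylase, had 0, 0.753 and 0.176 CPM in hopTum, against 8.46, 2.6 and 16.2 CPM in w1118 (adjusted p = 0.0113, and 0.0551 without w1118 replicate 3). yellow-e, a Yellow family gene of pigmentation, had 74.4, 156 and 81.7 CPM in hopTum, against 402, 375 and 686 CPM in w1118 (adjusted p = 0.00369). The pigment enzyme gene e (ebony) had 12.4, 581 and 14.9 CPM in hopTum, against 4348, 1726 and 1668 CPM in w1118, but with hopTum replicate 2 so far from the others it was not called (adjusted p = 0.13). The higher gene, y (yellow), also a common stock marker, had 21.5, 4.61 and 6.59 CPM in hopTum, against 0, 0.4 and 0.362 CPM in w1118.

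Chitin is the main polysaccharide of the cuticle, and 4 of 21 tested chitin genes (25 listed) were lower and 2 higher. Without hopTum replicate 1 or w1118 replicate 2, 2 were lower and 1 higher. knk (Knickkopf), which protects new chitin, had 5.31, 3.77 and 8.34 CPM in hopTum, against 22.7, 30.1 and 34.4 CPM in w1118 (log2 fold change -2.32, SE 0.39, adjusted p = 0.00212). Cht5, a moulting chitinase, had 30.0, 93.6 and 55.2 CPM in hopTum, against 251, 303 and 249 CPM in w1118 (log2 fold change -2.17, adjusted p = 0.00646), and stood above the 7.98 to 24.8 CPM of tuSz1 (adjusted p = 0.0208). obst-G, a chitin-binding protein, was higher, with 177, 92.7 and 128 CPM in hopTum, against 29.4, 34.3 and 49.9 CPM in w1118 (log2 fold change 1.81, adjusted p = 0.00284).

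Patterning genes of the imaginal discs, the sheets of cells that become adult structures, were lower in level throughout their list. All 11 tested genes (15 listed) had a log2 fold change below 0, with a median of -0.73, and 2 were called. Summed, they stood at 326, 329 and 427 CPM in hopTum, against 716, 778 and 761 CPM in w1118, and at 374, 270 and 341 CPM in tuSz1. hth (Homothorax), a transcription factor of the inner limb and head, had 150, 219 and 242 CPM in hopTum, against 446, 578 and 572 CPM in w1118 (log2 fold change -1.38, SE 0.28, adjusted p = 0.00588). The ligand gene wg (Wingless) had 35.9, 18.1 and 37.6 CPM in hopTum, against 67.1, 52.4 and 55.8 CPM in w1118, and was not called (adjusted p = 0.0542). It was called lower in 8 of the 16 alternatives, among them DESeq2 size factors and total count scaling. None of those 8 left out a hopTum or w1118 library. In the fits that left out hopTum replicate 1 or 2, or any 1 of the w1118 replicates, 1 disc gene was called. Ecdysone response, Eig71E, glue, cuticle, tanning and disc genes all change with age in late larvae, the larval stage of the pools is not given, and its part in these differences was not tested.

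**Figure D5:**
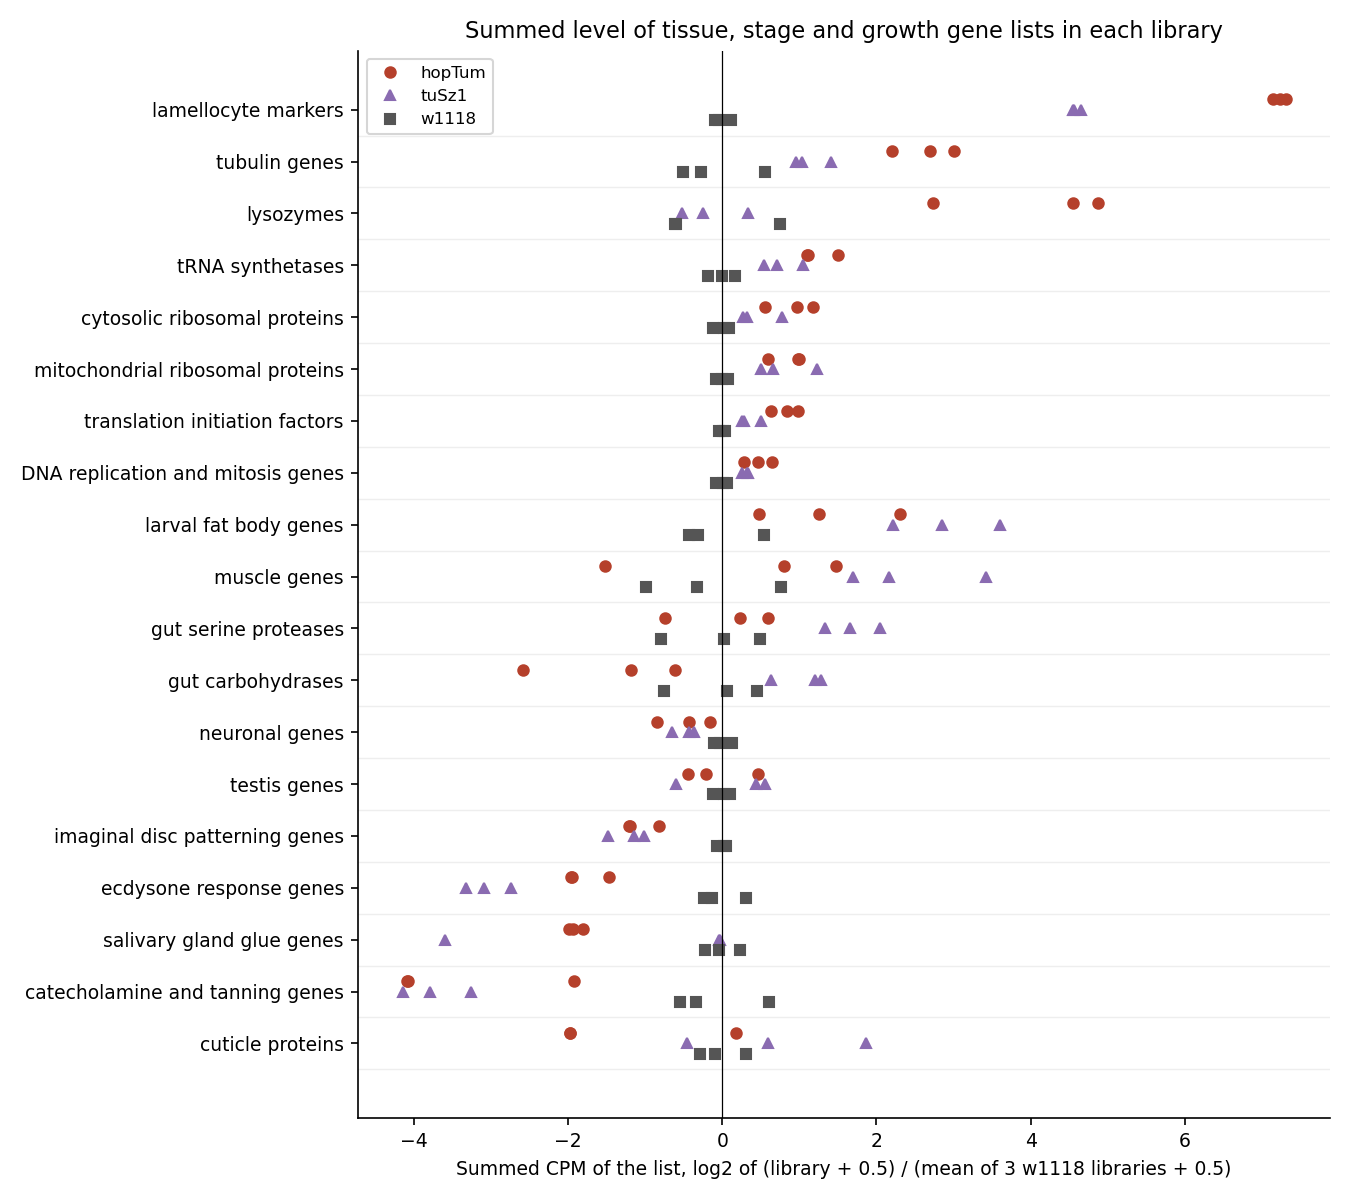
Summed level of 19 gene lists in each library, as log2 of the library's sum over the mean of the 3 w1118 libraries, with 0.5 CPM added to both; circles are hopTum, triangles tuSz1 and squares w1118 libraries. Lamellocyte and tubulin sums are high in the 3 hopTum libraries and intermediate in tuSz1, ecdysone response and disc sums are low in both mutant strains, and the glue sum of 1 tuSz1 library lies far below the others.

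Among carbohydrate-digesting enzymes of the gut a few genes fell. Of 10 tested carbohydrases (14 listed), 3 were lower and none higher, at a median log2 fold change of -1.45. Their summed level overlapped, at 422, 626 and 159 CPM in hopTum and 1306, 996 and 565 CPM in w1118. Mal-A1, a maltase at 8449664 to 8451904 on arm 2R, had 25.8, 29.0 and 6.67 CPM in hopTum, against 546, 264 and 73.8 CPM in w1118 and 596 to 980 CPM in tuSz1. Its log2 fold change against w1118 was -3.84 (SE 0.75, adjusted p = 0.00724). Mal-A8, a second maltase of the same cluster, had 42.4, 45.9 and 21.3 CPM in hopTum, against 234, 148 and 142 CPM in w1118 (log2 fold change -2.26, SE 0.38, adjusted p = 0.00202). Both were also lower in hopTum than in tuSz1, at adjusted p of 0.00322 for Mal-A1 and 0.00053 for Mal-A8. Amyrel, an amylase-related enzyme, had 3.17, 11.2 and 2.9 CPM in hopTum, against 81.0, 209 and 201 CPM in w1118 (adjusted p = 0.0156), a call lost without hopTum replicate 1 (0.0835) and 3 (0.0645). The amylase gene Amy-d itself overlapped, at 319, 401 and 119 CPM in hopTum and 274, 204 and 105 CPM in w1118.

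Of 26 tested gut serine proteases (31 listed), 4 were higher and 2 lower than in w1118, near the background shares, and with total count scaling 2 were higher and 4 lower. Against tuSz1, none was higher and 12 were lower in hopTum, where 9.66% of all genes tested were called, 4.14% higher and 5.52% lower. Jon99Cii had 17350, 25030 and 8818 CPM in hopTum, against 3669, 3399 and 2101 CPM in w1118 (log2 fold change 2.48, SE 0.45, adjusted p = 0.00346). Jon25Bi had 335, 637 and 115 CPM in hopTum, against 4193, 2211 and 499 CPM in w1118 (log2 fold change -2.67, adjusted p = 0.0337). The strains overlapped for Jon25Bi, and the call was lost in 8 alternatives, among them the fits without hopTum replicate 1 (0.124) or 3 (0.061), w1118 replicate 1 (0.1) or 2 (0.0782), or tuSz1 replicate 3 (0.0553). Jonah genes come in near-identical pairs whose reads may be split between copies. No protease was lower without hopTum replicate 1 or 3 or w1118 replicate 1 or 2, and 2 were higher when hopTum replicate 1 or 2 or any w1118 replicate was left out.

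Of 4 tested larval fat body genes (8 listed), 2 were higher in hopTum. That number was 1 without hopTum replicate 1 or 2 or w1118 replicate 1, and 0 without w1118 replicate 2. The larval storage protein gene Lsp1gamma had 35910, 58590 and 21300 CPM in hopTum, against 7095, 5219 and 13530 CPM in w1118 (log2 fold change 2.16, SE 0.55, adjusted p = 0.0188), a call lost without hopTum replicate 1 (0.0563) or 2 (0.062) and without w1118 replicate 1 (0.061) or 2 (0.0883). Its companion Lsp1alpha, a further storage protein, overlapped, at 2088, 20170 and 725 CPM in hopTum and 5674, 6574 and 9666 CPM in w1118. Apoltp, the lipid transfer particle precursor of the fat body, had 341, 217 and 348 CPM in hopTum, against 66.8, 55.8 and 103 CPM in w1118 (adjusted p = 0.0128, and 0.0627 without w1118 replicate 2). None of 10 tested neuronal genes (15 listed) was called by edgeR, at a median log2 fold change of -0.56. At an unadjusted p under 0.05, 2 of them were lower, and DESeq2's Wald test called 0. Of 16 tested testis genes (22 listed), 1 was higher and 1 lower, and their summed level overlapped, at 794, 932 and 1493 CPM in hopTum and 1153, 1096 and 990 CPM in w1118. The higher gene, topi (adjusted p = 0.0328), lost its call with total count scaling (0.167), where the lower gene kept its call. The call of topi was also lost without hopTum replicate 1 or 3 (0.114 and 0.0996) and without w1118 replicate 2 or 3 (0.0938 and 0.109). The lower gene, sa (adjusted p = 0.032), lost its call without hopTum replicate 1 or 2 (0.1 and 0.0846) and without w1118 replicate 1, 2 or 3 (0.0589, 0.0884 and 0.0849). Without hopTum replicate 3, 3 testis genes were lower. Ilp2, an insulin-like peptide of brain neurosecretory cells, had 5.11, 7.35 and 4.39 CPM in hopTum, against 20.4, 14.1 and 26.7 CPM in w1118 (log2 fold change -1.86, SE 0.36, adjusted p = 0.00438). It was also lower than the 30.5 to 41.0 CPM of tuSz1 (adjusted p = 0.00125).

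Detoxification genes moved in both directions. Of 62 tested cytochrome P450 genes (85 listed), 12 were higher and 7 lower, at a median log2 fold change of 0.30 that turned to -0.12 with total count scaling, where 10 were higher and 11 lower. The number lower was 4 without hopTum replicate 1 or 3 or w1118 replicate 3. Cyp4aa1, at 15942864 to 15947266 on arm 2R, had 310, 37.0 and 221 CPM in hopTum, against 7.5, 3.87 and 4.92 CPM in w1118 (log2 fold change 5.12, SE 0.74, adjusted p = 0.00158). It was also above the 9.41 to 21.1 CPM of tuSz1 (adjusted p = 0.01), and hopTum replicate 2 was again the lowest of its group. Cyp6a2, known for insecticide resistance, had 25.6, 46.3 and 10.2 CPM in hopTum, against 2.06, 0.533 and 1.45 CPM in w1118 (log2 fold change 4.34, adjusted p = 0.00169). Cyp6a8, a relative, had 37.9, 55.2 and 32.1 CPM in hopTum, against 9.48, 5.87 and 12.2 CPM in w1118 (adjusted p = 0.00155), but was below the 141 to 275 CPM of tuSz1 (adjusted p = 0.00213). Among the falls, Cyp9b2 had 113, 144 and 43.0 CPM in hopTum, against 775, 860 and 756 CPM in w1118 (log2 fold change -2.995, SE 0.43, adjusted p = 0.000737). Cyp6d5 had 136, 311 and 122 CPM in hopTum, against 957, 1066 and 2064 CPM in w1118 (log2 fold change -2.85, adjusted p = 0.00126).

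Glutathione S-transferases, which couple glutathione to toxic compounds, had 3 of 26 tested genes (35 listed) higher and 1 lower. Without tuSz1 replicate 3, 5 were higher and 2 lower. GstE2 had 26.4, 49.0 and 23.8 CPM in hopTum, against 1.18, 1.0 and 2.24 CPM in w1118 (log2 fold change 4.48, SE 0.46, adjusted p = 5.02e-05). GstE6 had 141, 240 and 122 CPM in hopTum, against 31.2, 18.4 and 14.9 CPM in w1118 (log2 fold change 2.96, adjusted p = 0.000447). GstD3 had 169, 194 and 137 CPM in hopTum, against 47.9, 48.8 and 65.5 CPM in w1118 (log2 fold change 1.63, adjusted p = 0.000881). In tuSz1 these genes stood near their hopTum levels, and hopTum was not called different from it for any of the 3.

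The small heat shock genes Hsp67Bc and Hsp67Ba, neighbours on arm 3L, fell in hopTum. Hsp67Bc had 39.4, 121 and 64.2 CPM in hopTum, against 405, 483 and 1139 CPM in w1118 (log2 fold change -3.17, SE 0.58, adjusted p = 0.00398). No other gene of the 12 tested heat shock genes (19 listed) was called. None of 9 tested glycolysis genes (14 listed) and none of 8 tested citric acid cycle genes (12 listed) was called by edgeR, at medians of 0.53 and 0.54. Over the alternatives the glycolysis median ranged from -0.772 to 0.907, and that of the citric acid cycle from 0.124 to 1.075. At an unadjusted p under 0.05, 1 glycolysis gene was higher and 0 citric acid cycle genes differed, and DESeq2's Wald test called 0 in either list. Of lipid genes, Npc2a, a sterol carrier, had 1068, 1971 and 973 CPM in hopTum, against 582, 293 and 317 CPM in w1118 (adjusted p = 0.0088, and 0.0509 without w1118 replicate 2). FASN3, a fatty acid synthase of the oenocytes, had 227, 161 and 251 CPM in hopTum, against 459, 608 and 624 CPM in w1118 (log2 fold change -1.4, adjusted p = 0.00467).

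Some of the larger falls were in genes outside the lists. mthl8, a Methuselah-like receptor, had no count in hopTum and 61.3, 87.6 and 67.8 CPM in w1118, at least 254-fold lower against the floor of 3 counts per library. CG42717 had no count in hopTum either and 15.1, 69.2 and 10.5 CPM in w1118, at least 111-fold lower (adjusted p = 0.0287), a call lost without hopTum replicate 1, 2 or 3 (0.0882, 0.0543 and 0.0771). Alp7, an alkaline phosphatase, had 0.409, 2.45 and 1.23 CPM in hopTum, against 994, 1014 and 188 CPM in w1118 (log2 fold change -9.05, SE 1.12, adjusted p = 0.000881). CG6296, which the tables used here name by its number only, had 21.9, 13.1 and 5.27 CPM in hopTum, against 688, 648 and 436 CPM in w1118 (log2 fold change -5.46, SE 0.56, adjusted p = 5.48e-05) and 1577, 1582 and 2990 CPM in tuSz1. CG9877 had 34.3, 51.2 and 56.1 CPM in hopTum, against 2401, 1460 and 1037 CPM in w1118 (log2 fold change -5.11, adjusted p = 9.55e-05). CG5391 had 33.9, 162 and 174 CPM in hopTum, against 1463, 1353 and 3231 CPM in w1118 (log2 fold change -4.03, adjusted p = 0.000826), and tuSz1 was lower still at 27.9 to 31.0 CPM (adjusted p = 0.036). The calls of Alp7, CG6296, CG9877 and CG5391 held in all 16 alternatives, and that of mthl8 in the 15 that tested it.

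Some of the rises were in genes that lie side by side. Along the chromosomes, 10 runs of at least 4 adjacent tested genes were all higher in hopTum and 1 was all lower. Over all genes tested, 11.5% were higher and 6.65% lower, and how many runs such shares alone would give was not tested. Genes with too few counts to test can lie within a run. One higher run was the Turandot cluster TotA to TotZ at 20871036 to 20878363 on arm 3R and another the Bomanin cluster BomT1 to BomS5 at 18381393 to 18390242 on arm 2R. The 3 further runs given next held serine protease genes and protease homologues, the copies without catalytic activity. The run on arm 2L at 2842589 to 2868548 held CG18557 (also named cSPH125), with 2605, 1483 and 1881 CPM in hopTum, against 10.95, 8.33 and 14.6 CPM in w1118 (log2 fold change 7.46, SE 0.42, adjusted p = 5.71e-07). Beside it, CG3117 (SPH94) had 337, 301 and 204 CPM in hopTum, against 6.91, 15.5 and 28.8 CPM in w1118 (log2 fold change 4.04, adjusted p = 0.000137). The run on arm 2R at 15689826 to 15698010 held Erasp, CG33460 (SPH41), CG33461 (SP239) and CG33462 (SP240).

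In that run CG33462 had 1037, 630 and 875 CPM in hopTum, against 0.882, 2.13 and 0.869 CPM in w1118 (log2 fold change 9.34, SE 0.52, adjusted p = 5.71e-07). CG33460 had 631, 491 and 619 CPM in hopTum, against 11.8, 15.3 and 26.5 CPM in w1118 (log2 fold change 5.02, SE 0.36, adjusted p = 3.07e-06). Erasp had 705, 597 and 580 CPM in hopTum, against 23.5, 17.8 and 61.4 CPM in w1118 (log2 fold change 4.20, adjusted p = 9.52e-05). The third protease run, on arm 2L at 15661041 to 15706220, ended with CG31827 (SPH207), which had 42.1, 15.1 and 35.03 CPM in hopTum and no count in w1118, at least 145-fold higher against the floor. The 4 members of each of these 3 runs stood higher in the 3 hopTum libraries than in the 3 w1118 libraries, and the named members' calls held in all 16 alternatives. Neighbouring copies may share reads, so their levels are not independent.

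A further run on arm 3R, at 22746446 to 22794030, held 6 genes from CG17141 to Nepl15, the Nepl genes coding for neprilysin-like peptidases. The call of Nepl15 (adjusted p = 0.0195 by edgeR) was lost with total count scaling (0.0549) and without hopTum replicate 1 (0.0956). Without w1118 replicate 2 or 3 it was lost too (0.0883 and 0.0541), so the run of 6 did not hold in those fits. Nepl14 had 61.1, 77.7 and 68.8 CPM in hopTum, against 14.9, 16.1 and 23.6 CPM in w1118 (log2 fold change 1.93, SE 0.26, adjusted p = 0.000407). Genes of this run overlap each other, and the strand setting of the counting is not given in the sources used here, so reads of overlapping genes could not be separated. The lower run, 7 genes at 24255327 to 24335976 on arm 2R, held slbo, the C/EBP transcription factor of border cells, with 0.613, 1.41 and 1.41 CPM in hopTum, against 14.1, 5.27 and 8.54 CPM in w1118 (log2 fold change -3.01, SE 0.59, adjusted p = 0.00724). It also held Fatp3, a fatty acid transport protein, with 1.23, 1.32 and 0.527 CPM in hopTum, against 5.29, 7.8 and 4.27 CPM in w1118 (adjusted p = 0.00867). mir-4985, a further gene of the run, lies within Fatp3, so their reads could not be separated. The call of CG13577 inside the run (adjusted p = 0.0497) was lost without hopTum replicate 1 or 2 (0.138 and 0.112). It was also lost without w1118 replicate 1, 2 or 3 (0.0902, 0.148 and 0.0909), so the run of 7 did not hold in those fits. In other higher runs, Odc2 and CG30289 lost their calls without w1118 replicate 1 (0.111 and 0.0728) or 2 (0.138 and 0.107).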

How the data were processed

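Total RNA of whole larvae was sequenced, with 3 genotypes and 3 libraries each; the labels call them biological replicates of 20 pooled larvae, and groups were taken from the sample titles. The deposited values are raw read counts per RefSeq transcript, 1 file per library with 34111 entries. Per the submitters' processing notes, FastQC 0.11.8, HISAT2 2.1.0, featureCounts 1.6.3 and dm6 were used; the settings, the strand option and the annotation version are not given in the sources used here. Reads shared by transcripts of a gene can go uncounted under such counting, which lowers multi-transcript genes.

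Transcripts were matched to gene symbols and dm6 coordinates through a RefSeq table of the same assembly: 33766 entries matched with their version, 146 without it, and 199 holding 0.421% of counts did not. Counts were summed per gene and tested with edgeR 4.0.16 in R 4.3.3 (TMM factors, default filter on low counts by group, robust quasi-likelihood test, 1 model of all 9 libraries), with Benjamini-Hochberg adjustment over the 9106 genes tested and a threshold of 0.05. TMM factors were 0.872 to 1.19 in hopTum and 1.25 to 1.37 in w1118. Standard errors are the absolute log2 fold change over the square root of F. Folds against a genotype with no count use 3 counts per library; such floors cover counting error only. The fit was tested on simulated data.

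Named genes were hop, the 12 called genes of highest and the 12 of lowest log2 fold change among those at 20 CPM or more without overlap, the 10 largest rises and 10 largest falls in CPM, and up to 4 called members and the first 2 members of each of 55 lists; of these the text gives a selection. Other list members, genes of the runs and genes of chromosome 4 were chosen after their values were seen. The members, lists and tests were chosen with earlier results of these data known. List counts cover only members that passed the filter on low counts. Same-numbered replicates of hopTum and w1118 did not deviate together (correlations 0.165, -0.24 and 0.0758), so the numbers were not used as pairs. Alternatives were other scalings, filters, single-transcript genes, a replicate block, DESeq2 1.42.0, the 6 libraries alone and each library left out; the fit of hopTum against w1118 without tuSz1 replicate 3 was chosen after seeing the data. No sequences were analysed here.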

Additional observations from a re-analysis of the deposited data

How the results depend on the processing

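The number of genes that differed between hopTum and w1118 was 1649, and 1582 with DESeq2 size factors, 1296 with total count scaling, 1487 with the 50 most counted genes left out, 1493 with no filter on low counts, 1301 with a mean count of at least 50, 1520 with only the 6 libraries and 2071 with DESeq2's Wald test. It moved to 1032 with single-transcript genes only, where fewer genes were tested, and ranged from 823 to 1999 when 1 library was left out (1999 without tuSz1 replicate 3, an alternative chosen after seeing the data). The share of higher calls, 63.25%, moved to 37.5%, 50.71% and 50.97% with total count scaling, with the 50 most counted genes left out and with no filter on low counts; the cause was not tested beyond the shift of all genes given above. Against tuSz1, 880 genes differed, and 1408 with total count scaling, 1341 with DESeq2's Wald test and 507 to 842 when 1 library was left out. With the replicate number as a block the counts were 1131 against w1118 and 504 against tuSz1; the numbers carry no stated pairing, and the deviations of same-numbered samples correlated at 0.165, -0.24 and 0.0758. Of 258 called genes examined singly, 142 kept their call in each of the 16 alternatives that tested them. Lsp1alpha, not called at a log2 fold change of 0.07, was lower at -2.37 without hopTum replicate 2 (adjusted p = 0.0292 by edgeR's quasi-likelihood test), and ranged up to 0.60 without hopTum replicate 3. Fitted folds of genes near the floor of 0.2 to 0.357 CPM are uncertain.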

Other observations

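Genes of chromosome 4, the small and mostly heterochromatic autosome, gave calls in the lower direction only. Of its 62 tested genes, 11 (17.7%) were lower in hopTum than in w1118 and none was higher, at a median log2 fold change of -0.70, whereas the other arms had medians of -0.13 to 0.05 and more higher than lower calls. mav (maverick), a TGF-beta family ligand, had 73.4, 49.7 and 91.0 CPM in hopTum, against 149, 214 and 183 CPM in w1118 (log2 fold change -1.35, SE 0.27, adjusted p = 0.0061 by edgeR's quasi-likelihood test). Actbeta, the activin ligand known from neurons, had 16.2, 8.85 and 14.7 CPM in hopTum, against 23.2, 31.5 and 41.0 CPM in w1118 (adjusted p = 0.0254), a call lost without hopTum replicate 2 (0.066) and without w1118 replicate 2 or 3 (0.0764 and 0.0998). CG33521 had 2.35, 3.39 and 2.55 CPM in hopTum, against 7.87, 10.5 and 10.6 CPM in w1118 (adjusted p = 0.00697). The 3 w1118 values lay above the 3 hopTum values for mav, Actbeta and CG33521, which were chosen after their values were seen. Further chromosome 4 calls were also lost when 1 library was left out. Without w1118 replicate 2 these were CG11155 (0.0535), CG1674 (0.0848), CG32006 (0.129), CG32017 (0.0535), Pur-alpha (0.0945) and Sox102F (0.123). The call of Kif3C was lost without w1118 replicate 3 (0.0967).

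Odorant-binding proteins, small carriers that larvae also express outside the sense organs, had 1 of 15 tested genes (51 listed) higher and 2 lower. With total count scaling 5 were lower. The lower genes, Obp50d and Obp56d, both lost their call without hopTum replicate 1 (0.0582 and 0.0894), w1118 replicate 2 (0.0649 and 0.138) or w1118 replicate 3 (0.0661 and 0.0637), which left 0 by edgeR. Without tuSz1 replicate 3, 5 were lower, and without hopTum replicate 3, 1. Obp49a had 138, 445 and 145 CPM in hopTum, against 13.2, 18.8 and 14.7 CPM in w1118 (log2 fold change 3.96, SE 0.46, adjusted p = 0.000133). Vha36-2, a subunit gene of the vacuolar proton pump, had 40.2, 18.1 and 41.9 CPM in hopTum, against 11.4, 6.93 and 5.94 CPM in w1118 (adjusted p = 0.0082), the single call among 19 tested pump genes (32 listed), whose median log2 fold change was -0.52.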
